A study of Mus musculus with 9 samples.

Results

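The mRNAs of 8 germ cell RNA-binding proteins that regulate translation were followed through the entry into meiosis, with and without a second exposure to retinoic acid (RA). They were the DAZ family genes Dazl and Boll, the cytoplasmic polyadenylation element-binding (CPEB) genes Cpeb1, Cpeb2, Cpeb3 and Cpeb4, the Pumilio gene Pum2 and the Nanos gene Nanos3. These members were chosen by name and correspond to 8 of the 24505 genes counted. All 8 passed the filter on low counts in each of the 3 comparisons.

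Male germ cells transcribe many mRNAs well before their proteins are made, and proteins bound to the 3′ untranslated region (UTR) decide when a stored mRNA is translated. DAZL and BOLL bind short U-rich stretches and recruit poly(A)-binding protein, CPEB proteins bind the cytoplasmic polyadenylation element (CPE) and either repress an mRNA or extend its poly(A) tail, and Pumilio proteins bind the UGUANAUA element and, often with a Nanos partner, recruit deadenylases. In the testis, DAZL is needed throughout germ cell development, CPEB1 is needed in meiotic prophase and NANOS3 marks germ cells before meiosis.

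Cells came from juvenile Uchl1-eGfp male mice outcrossed to CD-1, whose EGFP transgene, under the Uchl1 promoter, is bright in spermatogonia but dim in preleptotene (PL) spermatocytes, and testes were pooled before sorting on that brightness. All 3 groups received WIN 18,446, an inhibitor of RA synthesis, at 100 µg per g daily from P1 (until P11 in the sample records), and then, at P11, RA injected once (10 µl of a 10 µg per µl solution), which starts a synchronous differentiation. In/B spermatogonia (intermediate and type B, the last mitotic stages) were the bright cells at P17, and RA-sufficient PL spermatocytes were the dim cells at P19. RA-deficient PL spermatocytes were the dim cells at P19 from mice that continued to receive WIN 18,446 daily after the RA injection. Each group had 3 libraries of polyadenylated RNA, so the p-values below measure the spread between these libraries.

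Between 12612959 and 27042274 reads per library were counted on genes. Read counts scaled to library size (CPM) below are TMM-scaled over all 9 libraries, and 3 counts correspond to between 0.111 and 0.238 CPM before that scaling. Germ cell markers were present in every library, with a summed level over 6 genes between 2737 and 5345 CPM. Summed levels of 5 meiotic entry markers were between 217 and 473 CPM in In/B and between 1297 and 1639 CPM in both PL groups. Of these markers, Sycp3, Dmc1 and Spo11 rose in both PL groups against In/B. Stra8 and Rec8 passed in neither, and the log2 fold changes of Rec8 were negative (-0.92 in RA-sufficient and -1.32 in RA-deficient PL). Sertoli cell markers (7 of 8 in the table, none at 0) summed to between 2789 and 3618 CPM in RA-sufficient PL, against between 66.3 and 342 CPM in In/B and between 286 and 503 CPM in RA-deficient PL. The 5 spermatogonial markers were Dmrt1, Kit, Sohlh1, Sohlh2 and Uchl1 (none at 0). They summed to between 3359 and 4960 CPM in In/B and between 596 and 778 CPM in RA-sufficient PL. In RA-deficient PL they summed to 3012, 3152 and 1241 CPM in replicates 1, 2 and 3. Replicate 3 of RA-deficient PL stood apart in this way, with Kit, a receptor of differentiating spermatogonia, at 20.3 CPM against 561 and 521 CPM in replicates 1 and 2. Uchl1, whose promoter drives the EGFP used to sort, made up the largest part of these sums. It was at 1728, 1885 and 991 CPM in RA-deficient PL. Levels were between 425 and 613 CPM in RA-sufficient PL and between 2352 and 3657 CPM in In/B. Sohlh2 was at 203, 195 and 103 CPM in RA-deficient PL, above In/B (79.4 to 79.5 CPM) in every replicate. Of the 5 markers, 1 passed higher and 0 lower in RA-deficient PL against In/B. PL spermatocytes are described by the study as the dim cells, and whether the sorted cells differed between the RA-deficient replicates was not tested, so means of this group cover libraries that differ in these markers. The RA-induced gene Stra8 was at 377, 365 and 81.5 CPM in RA-deficient PL and at 444, 126 and 121 CPM in RA-sufficient PL, so the libraries of these groups overlapped. Because RNA was pooled over cells, fewer cells of a type and less RNA per cell cannot be told apart.

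In the mouse genome build of the counts (mm9, GENCODE M1) Dazl lies at chr17:50418719-50432924, Boll at chr1:55305502-55420313, Cpeb1 at chr7:88491912-88600351, Cpeb3 at chr19:37095781-37283091 and Nanos3 at chr8:86697632-86700451, all on the minus strand. Cpeb2 lies at chr5:43624702-43680963, Cpeb4 at chr11:31772211-31835634 and Pum2 at chr12:8680940-8759387 on the plus strand. Exons of Cpeb2 share 87 bp with Gm7854 and those of Cpeb3 share 116 bp with A330032B11Rik, both on the opposite strand and both in the count table, so these counts are uncertain where strand was not used.

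The members can themselves be targets of the proteins they encode, and their longest annotated 3′ UTRs were searched on the sense strand. The Pumilio element TGTANATA (UGUANAUA in the RNA, N being any base) occurred in 4 of 8 members, once each in Cpeb1, Cpeb2 and Cpeb3 and at 2 positions in Pum2. Of UTRs of like length (0.8 to 1.2 times that of the member), 22.97% held one for Cpeb1, 49.1% for Cpeb2, 47.4% for Cpeb3 and 65.6% for Pum2. They are shown because 1 member belongs to the family that binds this element, with the element in capitals, 5′ to 3′, and mm9 coordinates.
Cpeb1, chr7:88492433-88492454, minus strand: cagctgcTGTATATAgttttaa
Cpeb2, chr5:43677646-43677667, plus strand: ttcagtgTGTACATAaactaaa
Cpeb3, chr19:37096611-37096632, minus strand: tttgtttTGTAAATAaatgtgc
Pum2, chr12:8756964-8756985, plus strand: atagagaTGTATATAgaattat
Pum2, chr12:8757217-8757238, plus strand: acagaatTGTATATActtataa
A CPE (TTTTAT or TTTTAAT) occurred in 7 of 8 members, from 4 matches in Cpeb1 to 24 in Cpeb2, and the U-rich motif bound by DAZL (TTTGTTT) occurred in the same 7, from 1 match in Dazl, Boll and Cpeb1 to 6 in Cpeb3. A CPE was present in between 64.8% and 96.7% of UTRs of the lengths of these 7 members, and the DAZL motif in between 38.97% and 86.03%. Nanos3, with a UTR of 172 bases, held none of the 3 motifs, and 16.6% of UTRs of like length held a CPE. A match is a run of letters and not a measured binding site.

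Dazl, which is needed for germ cells to become competent for meiosis, was the most abundant member. It rose in RA-deficient PL and did not pass the test in RA-sufficient PL. Its levels were 1038, 1181 and 1264 CPM in In/B, 953, 1198 and 1189 CPM in RA-sufficient PL, and 2362, 2275 and 1982 CPM in RA-deficient PL. Every RA-deficient library lay above every library of the other groups, and the In/B and RA-sufficient libraries overlapped. The log2 fold change (± SE) against In/B was -0.0050 ± 0.13 in RA-sufficient PL (adjusted p = 0.976, edgeR) and 1.09 ± 0.11 in RA-deficient PL (adjusted p = 2.8e-04, edgeR). Between the PL groups Dazl was 1.98-fold higher in RA-deficient PL (log2 fold change 0.99 ± 0.12, adjusted p = 0.0026, edgeR), and it passed the test in each of the 6 fits made without 1 library, with an adjusted p between 8.6e-04 and 0.0186. With library size as the only scaling, the log2 fold change against In/B was 0.78 and thus under 1.

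The germ cell helicase gene Ddx4 gives a scale within germ cells. It was at 418, 423 and 396 CPM in RA-sufficient PL and at 504, 449 and 527 CPM in RA-deficient PL, a log2 difference of 0.25 ± 0.11 (adjusted p = 0.129, edgeR), and it was itself lower in RA-sufficient PL than in In/B (-0.32 ± 0.10, adjusted p = 0.0172). The ratio of Dazl to Ddx4 within a library was 1.92, 2.22 and 2.37 in In/B, 2.28, 2.83 and 3.00 in RA-sufficient PL and 4.69, 5.07 and 3.76 in RA-deficient PL. For Dazl, the RA-deficient libraries lay above all others on this scale too. For Cpeb2, Cpeb3 and Pum2, whose PL groups did not overlap in CPM, they overlapped on it. The ratio of Cpeb2 was between 0.304 and 0.400 in RA-sufficient PL and between 0.358 and 0.479 in RA-deficient PL, that of Cpeb3 between 0.0390 and 0.0450 and between 0.0381 and 0.0536, and that of Pum2 between 0.521 and 0.571 and between 0.561 and 0.726. This scale rests on 1 of the 6 germ cell markers, and Ddx4 is also among the DAZL or CPEB1 targets below. All 6 markers had positive fold changes in RA-deficient against RA-sufficient PL. Mael (0.51 ± 0.12, adjusted p = 0.0262, edgeR) and Uchl1 (1.56 ± 0.25, adjusted p = 0.0063, edgeR) passed the test. Ratios to markers other than Ddx4 were not computed.

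**Figure D1:**
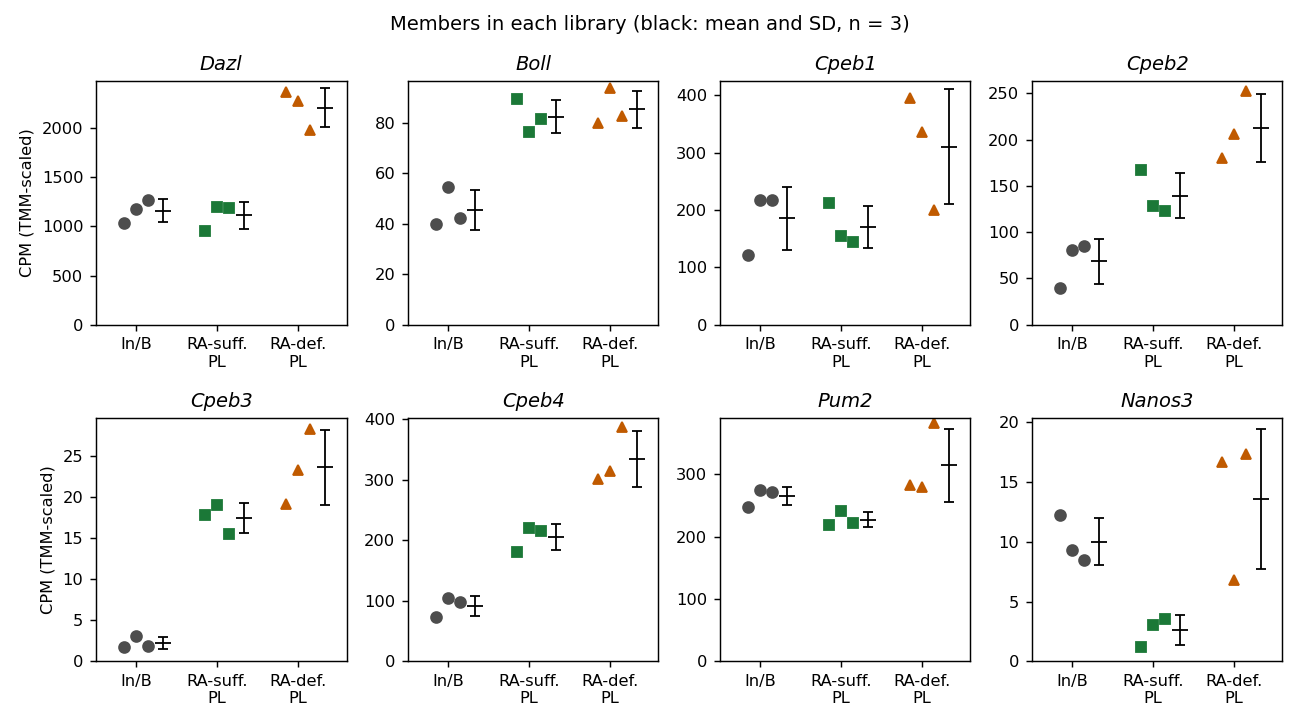
TMM-scaled CPM (vertical axes, each from 0) of the 8 members in the 3 libraries of In/B spermatogonia (grey circles), RA-sufficient PL (green squares) and RA-deficient PL (orange triangles), with the mean and SD in black. Dazl is raised only in the RA-deficient libraries (1982 to 2362 CPM), Cpeb3 is near 2 CPM in In/B and above 15 CPM in both PL groups, and Nanos3 is lowest in RA-sufficient PL (1.18 to 3.57 CPM).

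Boll, the other DAZ family gene among the members, rose in both PL groups. Its levels were 39.8, 54.5 and 42.4 CPM in In/B, 89.5, 76.3 and 81.6 CPM in RA-sufficient PL and 80.1, 93.8 and 82.5 CPM in RA-deficient PL. The PL libraries of both kinds lay above all In/B libraries and overlapped each other. The log2 fold change against In/B was 0.91 ± 0.15 in RA-sufficient PL (adjusted p = 8.8e-04) and 1.08 ± 0.16 in RA-deficient PL (adjusted p = 0.0018, edgeR). The difference between the PL groups was 0.04 ± 0.15 on the log2 scale (adjusted p = 0.849), and its sign turned with library size as the only scaling (-0.14), which moved the median of all genes from -0.09 to -0.27.

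Among the CPEB genes, Cpeb2, Cpeb3 and Cpeb4 rose in both PL groups, and Cpeb1 passed against In/B in RA-deficient PL, though in few of the fits made without 1 library. Cpeb3, which represses and reactivates stored mRNAs in neurons, was at low levels in In/B. Its levels were 1.79, 3.10 and 1.92 CPM in In/B (82 counts at most), 17.8, 19.04 and 15.4 CPM in RA-sufficient PL and 19.2, 23.3 and 28.3 CPM in RA-deficient PL. The PL libraries lay far above the In/B libraries, and the 3 RA-deficient libraries lay just above the RA-sufficient ones. Cpeb3 was 7.92-fold higher in RA-sufficient PL (log2 fold change 2.98 ± 0.30, adjusted p = 6.2e-05, edgeR) and 11.6-fold higher in RA-deficient PL (3.54 ± 0.34, adjusted p = 2.2e-04) than in In/B. The difference of 0.43 ± 0.25 between the PL groups did not pass the test (adjusted p = 0.248).

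Cpeb4, which sustains polyadenylation late in oocyte meiosis, rose in both PL groups and was higher in RA-deficient than in RA-sufficient PL. It was at 73.0, 104 and 98.0 CPM in In/B, 180, 221 and 215 CPM in RA-sufficient PL and 301, 314 and 386 CPM in RA-deficient PL. No library of a group overlapped with those of another. Against In/B it was 2.33-fold higher in RA-sufficient PL (log2 fold change 1.22 ± 0.15, adjusted p = 1.9e-04, edgeR) and 4.09-fold higher in RA-deficient PL (2.03 ± 0.17, adjusted p = 1.2e-04). It was 1.62-fold higher in RA-deficient than in RA-sufficient PL (0.70 ± 0.13, adjusted p = 0.0103), and passed in each of the 6 fits made without 1 library, with an adjusted p between 0.0081 and 0.0443. Its ratio to Ddx4 within a library was between 0.431 and 0.543 in RA-sufficient PL and between 0.597 and 0.732 in RA-deficient PL.

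Cpeb2, a close relative of Cpeb4, was at 40.0, 80.4 and 84.6 CPM in In/B, 167, 129 and 123 CPM in RA-sufficient PL and 180, 206 and 253 CPM in RA-deficient PL. The 3 groups did not overlap. Its log2 fold change against In/B was 1.09 ± 0.27 in RA-sufficient PL (adjusted p = 0.0063, edgeR) and 1.81 ± 0.28 in RA-deficient PL (adjusted p = 0.0019). The difference of 0.60 ± 0.19 between the PL groups missed the threshold (adjusted p = 0.0592, edgeR). It passed in 2 of 6 fits made without 1 library, those without replicate 1 of RA-sufficient PL (0.78, adjusted p = 0.0370) and without replicate 3 of RA-deficient PL (0.48, adjusted p = 0.0467), and the adjusted p reached 0.184 in the others. With DESeq2 it also passed (adjusted p = 0.0280).

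Cpeb1, the founding CPE-binding protein and the one that differs most in sequence from the other 3, was at 122, 218 and 217 CPM in In/B, 211, 155 and 145 CPM in RA-sufficient PL and 395, 336 and 199 CPM in RA-deficient PL. Replicate 3 of RA-deficient PL lay within the range of the other groups. The log2 fold change against In/B was -0.07 ± 0.23 in RA-sufficient PL (adjusted p = 0.820, edgeR) and 0.91 ± 0.29 in RA-deficient PL (adjusted p = 0.0417). The latter passed in 1 of 6 fits made without 1 library, that without replicate 3 of RA-deficient PL (1.15, adjusted p = 0.0040), and reached an adjusted p of up to 0.147 in the others. The RA-deficient minus RA-sufficient difference was 0.85 ± 0.28 (adjusted p = 0.0640, edgeR), and without that replicate 1.11 (adjusted p = 0.0026).

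**Figure D2:**
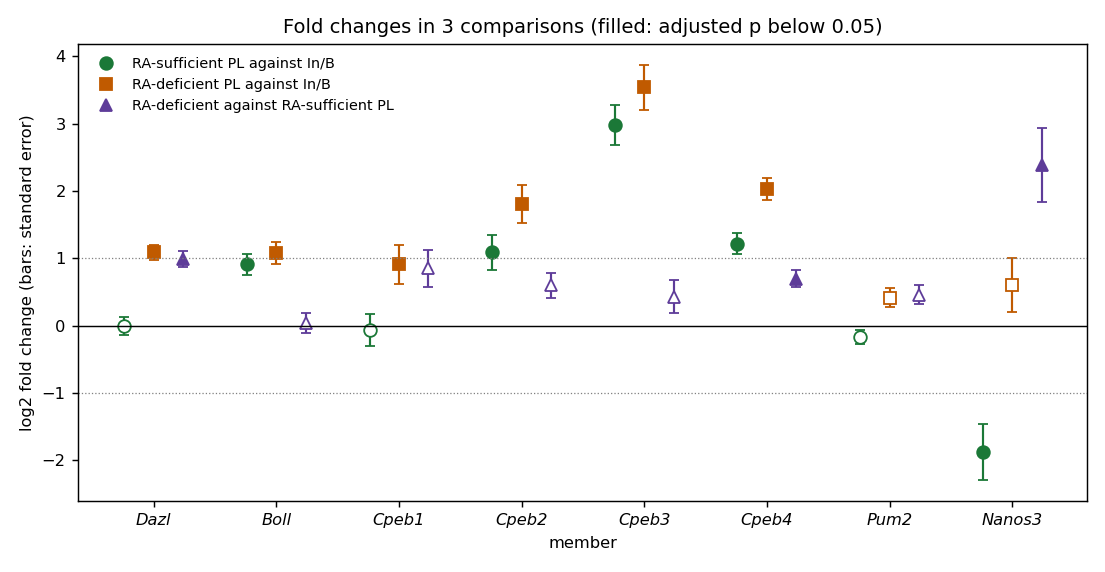
Fitted log2 fold change (vertical axis, bars are the standard error) of each member (horizontal axis) in RA-sufficient PL against In/B (green circles), RA-deficient PL against In/B (orange squares) and RA-deficient against RA-sufficient PL (purple triangles), filled where the adjusted p is below 0.05. Cpeb2, Cpeb3 and Cpeb4 lie above 1 in both comparisons with In/B, Dazl only in the RA-deficient one (1.09 against -0.0050), and Nanos3 lies at -1.87 and 2.39 in the comparisons that hold RA-sufficient PL.

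Pum2, a broadly expressed mRNA repressor, passed the test in no comparison. It was at 248, 276 and 271 CPM in In/B, 218, 242 and 223 CPM in RA-sufficient PL and 282, 280 and 383 CPM in RA-deficient PL. The RA-sufficient libraries were the lowest and the RA-deficient ones the highest, without overlap, but the differences were small. The log2 fold change was -0.16 ± 0.10 in RA-sufficient PL against In/B (adjusted p = 0.188, edgeR) and 0.42 ± 0.14 in RA-deficient PL against In/B (adjusted p = 0.0525). In RA-deficient against RA-sufficient PL it was 0.46 ± 0.14 (adjusted p = 0.0550, edgeR), and without replicate 3 of RA-deficient PL it was 0.31 (adjusted p = 0.0484).

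Nanos3, which keeps premeiotic germ cells alive and undifferentiated, was the member that fell from In/B to RA-sufficient PL. It was at 12.2, 9.30 and 8.48 CPM in In/B, 1.18, 3.03 and 3.57 CPM in RA-sufficient PL (between 16 and 81 counts) and 16.6, 6.81 and 17.3 CPM in RA-deficient PL. RA-sufficient PL lay below both other groups, which overlapped each other. It was 3.67-fold lower in RA-sufficient PL than in In/B (log2 fold change -1.87 ± 0.42, adjusted p = 0.0040, edgeR), and in RA-deficient PL its log2 fold change against In/B was 0.60 ± 0.40 (adjusted p = 0.285). Between the PL groups it was 5.23-fold higher in RA-deficient PL (2.39 ± 0.55, adjusted p = 0.0215, edgeR). That call passed in 2 of 6 fits made without 1 library, with a log2 fold change between 2.06 and 2.71 and an adjusted p between 0.0194 and 0.0723. It was lost without any one of the 3 RA-sufficient libraries and without replicate 1 of RA-deficient PL. The summed spermatogonial markers were also lowest in RA-sufficient PL, and their part in the Nanos3 result was not tested. In replicate 3 of RA-deficient PL, where these markers summed to 1241 CPM against 3012 and 3152 CPM, Nanos3 was at 17.3 CPM, as high as in replicate 1.

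Across the 8 members, 4 had an adjusted p below 0.05 and an absolute log2 fold change above 1, and so were called, between In/B and RA-sufficient PL (Cpeb2, Cpeb3 and Cpeb4 higher, Nanos3 lower), where 45.4% of all genes tested were called. In RA-deficient PL against In/B, 5 were called, all higher (Dazl, Boll, Cpeb2, Cpeb3 and Cpeb4), where 11.4% of all genes were called higher and 23.2% in either direction. This count was 6 without replicate 3 of RA-deficient PL, with Cpeb1 added, where 3995 of 15328 genes were called in either direction. With library size as the only scaling it was 3, where 3885 of 14877 genes were called. Between the PL groups 1 member was called (Nanos3, higher in RA-deficient PL), where 15.5% of all genes were called. By adjusted p alone 3 members passed there (Dazl, Cpeb4 and Nanos3), where 23.6% of all genes passed. All 3 were higher in RA-deficient PL. Of the 15352 genes tested, 1694 passed and were higher there, and 46.1% had a positive fold change. Without replicate 3 of RA-deficient PL the number called was 3 (Dazl, Cpeb1 and Nanos3), where 4484 of 15799 genes were called. The median log2 fold change of the members was 0.45, 1.09 and 0.65 in the 3 comparisons in this order, and that of all genes tested was 0.04, 0.0038 and -0.09. Over genes with a mean of at least 50 counts, the median between the PL groups was -0.0025. The comparisons share libraries, so their values stand side by side and are not independent. The Sertoli cell markers were raised in RA-sufficient PL in the same libraries, and their part in the differences between the PL groups was not tested.

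Per exon length, which allows levels of different genes to be compared, Dazl exceeded every other member in all groups, at 385, 369 and 732 CPM per kb in In/B, RA-sufficient PL and RA-deficient PL. In In/B it was followed by Cpeb1 (44.3 CPM per kb) and Pum2 (36.5 CPM per kb), whose libraries overlapped. Cpeb4, Nanos3, Boll and Cpeb2 came next, between 14.4 and 9.60 CPM per kb, and each overlapped its neighbour in this order. Cpeb3 was the lowest at 0.306 CPM per kb. In RA-sufficient PL, Cpeb4 (32.1 CPM per kb) overlapped with Pum2 (31.3 CPM per kb) below Cpeb1 (40.6 CPM per kb), and Nanos3 (3.55 CPM per kb) fell to the range of Cpeb3 (2.35 CPM per kb). In RA-deficient PL, Cpeb1 (74.0 CPM per kb), Cpeb4 (52.2 CPM per kb) and Pum2 (43.4 CPM per kb) overlapped in turn. Cpeb2 (29.9 CPM per kb), Boll (24.3 CPM per kb) and Nanos3 (18.6 CPM per kb) formed the next run of overlapping neighbours, above Cpeb3 (3.18 CPM per kb).

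**Figure D3:**
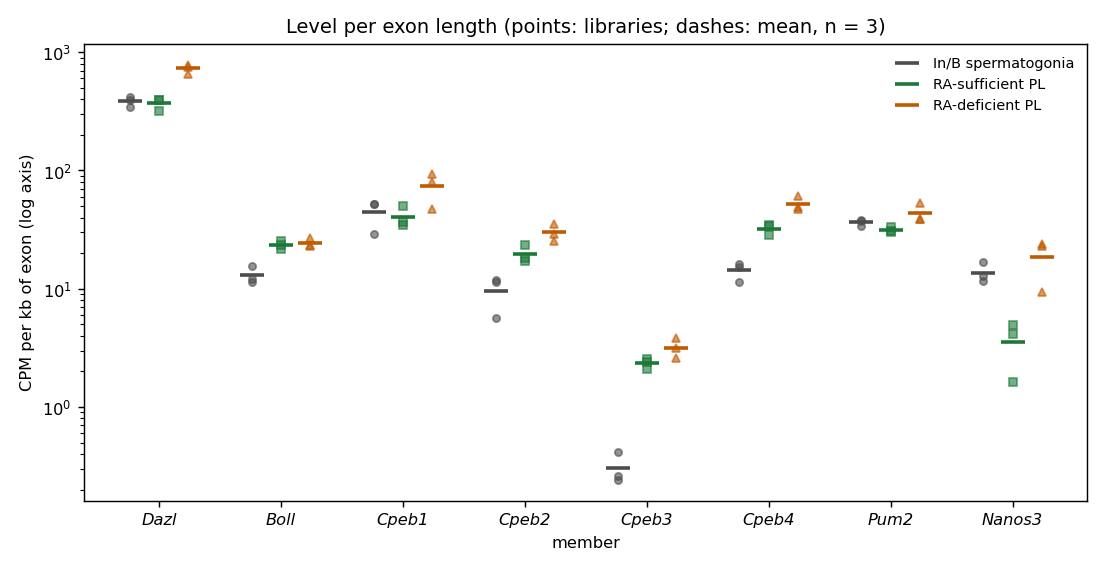
CPM per kb of exon (vertical log axis) of each member (horizontal axis) in In/B spermatogonia (grey), RA-sufficient PL (green) and RA-deficient PL (orange), with points for libraries and dashes for means of 3. Dazl is highest throughout (369 to 732 CPM per kb) and Cpeb3 lowest (0.306 to 3.18 CPM per kb).

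The promoters of the members that passed between the PL groups are shown for comparison, as the 250 bases before and 50 after the start of the gene from RefSeq (GRCm38.p6, whose coordinates differ from mm9). Windows were found for 7 of 8 members (12 windows), not for Cpeb2. On both strands they were searched for the motif associated with STRA8 (CNCCTCAG), an E-box (CACGTG), an E2F motif (GCGGGAA) and the hexamer of RA receptors (AGGTCA). Capitals mark the CNCCTCAG match, which lies 16 bases after the start of Dazl and, on the reverse strand, 10 bases before the start of Cpeb4.
Dazl, chr17:50293571-50293870, minus strand: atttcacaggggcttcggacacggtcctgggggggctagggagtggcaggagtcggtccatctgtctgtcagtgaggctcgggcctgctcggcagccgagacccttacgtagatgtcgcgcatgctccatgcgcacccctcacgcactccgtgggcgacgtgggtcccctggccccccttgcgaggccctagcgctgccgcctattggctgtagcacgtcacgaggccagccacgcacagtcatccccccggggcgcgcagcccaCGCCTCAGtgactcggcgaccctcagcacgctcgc
Cpeb4, chr11:31870690-31870989, plus strand: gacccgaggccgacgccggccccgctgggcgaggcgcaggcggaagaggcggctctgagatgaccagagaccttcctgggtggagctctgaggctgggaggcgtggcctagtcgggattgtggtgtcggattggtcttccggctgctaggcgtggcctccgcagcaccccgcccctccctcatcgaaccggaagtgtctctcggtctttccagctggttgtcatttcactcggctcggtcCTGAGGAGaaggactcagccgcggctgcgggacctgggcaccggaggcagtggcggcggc
Nanos3, chr8:84176503-84176802, minus strand: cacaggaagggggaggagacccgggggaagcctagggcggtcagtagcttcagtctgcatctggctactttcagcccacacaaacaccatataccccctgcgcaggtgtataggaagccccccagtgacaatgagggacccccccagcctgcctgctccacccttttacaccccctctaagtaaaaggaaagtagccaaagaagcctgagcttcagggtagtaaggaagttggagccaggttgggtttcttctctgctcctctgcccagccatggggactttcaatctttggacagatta
The STRA8-associated motif occurred in these 2 members of 7, in 1 window each of the 12, and in 7.94% of all 32851 promoter windows. Shares of all promoters here are per window, whereas Boll held 2 windows and Cpeb3 and Pum2 held 3 each. Counts of members are thus not directly comparable with these shares. The Nanos3 window held none of the 4 motifs and 3 CG dinucleotides, against 28 for Dazl and 27 for Cpeb4. The E-box occurred in windows of Boll and Cpeb1 (7.15% of all promoters), the E2F motif in windows of Boll and Pum2 (1511 promoters) and the hexamer in a window of Cpeb3 (16.3%). A match does not show binding, and its absence says only that these letters are not in this window.

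The members act through a shared machinery, taken here as 92 other genes in 7 lists. Of the 87 tested in RA-sufficient PL against In/B, 27 passed the test higher and 30 lower (65.0% of all genes passed in either direction), with a median log2 fold change of -0.12. In RA-deficient PL against In/B, 27 of 84 passed higher and 16 lower (36.7% of all genes passed), with a median of 0.17. In RA-deficient against RA-sufficient PL, 20 of 86 passed higher in RA-deficient PL and 6 lower (against the 23.6% of all genes), with a median of 0.31 against -0.09 for all genes, and 72.1% of these genes had a positive fold change against 46.1% of all genes. The median of all genes depended on the filter, at -0.0025 with a mean of at least 50 counts and -0.24 with no filter. Fewer genes had a count in RA-deficient PL (14769 to 15327 per library) than in RA-sufficient PL (17541 to 18434). The part of low-count genes in this contrast was not tested.

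Of 18 genes of poly(A) tail extension, 6 rose and 7 fell in RA-sufficient PL, and 7 rose and 4 fell in RA-deficient PL, each against In/B. Papolb, the testis poly(A) polymerase, rose in RA-sufficient PL (log2 fold change 3.56 ± 0.31, adjusted p = 3.6e-05, edgeR). It was at 98.4, 57.4 and 53.2 CPM there and at 5.24, 6.74 and 28.3 CPM in RA-deficient PL, where replicate 3 was the highest, and between the PL groups it was lower in RA-deficient PL (-2.40 ± 0.67). The scaffold gene Sympk (1.74 and 1.84) and Papolg, a nuclear poly(A) polymerase (0.98 and 1.62), rose in both PL groups. Fam46a, a non-canonical poly(A) polymerase, fell in both (-2.33 and -1.70), as did Cpsf4 (-1.35 and -0.68) and Cpsf2 (-0.89 and -0.75), subunits of the cleavage and polyadenylation factor. Of the 18, 5 were higher than in RA-sufficient PL and 1 lower. The higher ones included Papd5, a non-canonical poly(A) polymerase (0.99 ± 0.13, adjusted p = 0.0032), and Fip1l1, which tethers poly(A) polymerase (0.90 ± 0.13, adjusted p = 0.0041, edgeR).

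Of 20 deadenylation genes, 4 rose and 6 fell in RA-sufficient PL, and 7 rose and 4 fell of 19 tested in RA-deficient PL, against In/B. The catalytic subunit gene Cnot6l rose in both (0.84 and 1.27), as did Tob1 (0.78 and 1.55), while Btg2 (-2.43 and -1.24) and Tob2 (-2.35 and -1.21) fell in both. Tob1, Tob2 and Btg2 encode adaptors that bring deadenylases to mRNAs. Tob2 was at 101, 138 and 114 CPM in In/B, 21.3, 20.4 and 24.8 CPM in RA-sufficient PL and 46.5, 60.3 and 28.7 CPM in RA-deficient PL. Its RA-deficient libraries lay between those of the other groups, with replicate 3 nearest to RA-sufficient PL. In RA-deficient against RA-sufficient PL, 7 of 20 passed, all higher in RA-deficient PL, among them Tob2 (1.02 ± 0.29, adjusted p = 0.0419) and Cnot3, a scaffold subunit (0.92 ± 0.18, adjusted p = 0.0118, edgeR).

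Of 12 poly(A)-binding protein genes and their partners, 10 were tested in RA-sufficient PL against In/B, where 4 rose and 2 fell. The largest rises were those of Pabpc2 (5.16 ± 0.72) and Pabpc6 (4.53 ± 0.55), intronless copies of Pabpc1 whose reads may be shared with it. Pabpc2 was at 197, 93.8 and 81.4 CPM in RA-sufficient PL and at 0, 0 and 31.6 CPM in RA-deficient PL, so among the RA-deficient libraries it was counted in replicate 3 alone. Pabpc4, a cytoplasmic poly(A)-binding protein, fell in both PL groups (-2.13 and -1.21), Paip1, an activating partner of poly(A)-binding protein, fell in RA-sufficient PL (-0.49), and Paip2b, an inhibitory partner, rose in both PL groups (0.80 ± 0.12 and 0.95 ± 0.12). In RA-deficient PL against In/B, 1 of 9 rose and 1 fell. Of 9 tested between the PL groups, 1 passed, Pabpn1, the nuclear poly(A)-binding protein (-0.51 ± 0.12, adjusted p = 0.0208, edgeR).

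Of the 5 other Pumilio and Nanos genes and partners, 3 fell and none rose in RA-sufficient PL against In/B, and 1 rose and 2 fell in RA-deficient PL. Nanos1, a paralog of Nanos3, fell in both PL groups (-2.99 ± 0.24 and -1.75 ± 0.39), and so did Dnd1 (-2.28 and -1.09), a germ cell RNA-binding protein that works with Nanos proteins. Nanos1 was at 16.2, 12.3 and 5.07 CPM in RA-deficient PL, so unlike Nanos3 it was lowest there in replicate 3.

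Of the 5 DAZ-associated genes, 2 rose and 2 fell in RA-sufficient PL, and 1 rose and 1 fell in RA-deficient PL, against In/B. Dazap2, named for its binding to DAZ proteins, rose in both PL groups (1.48 ± 0.10 and 2.06 ± 0.10). It was at 253, 262 and 248 CPM in In/B, 637, 671 and 738 CPM in RA-sufficient PL and 906, 911 and 1017 CPM in RA-deficient PL. The 3 groups did not overlap, in the same order as for Cpeb4. Dazap1, an RNA-binding partner of DAZL, fell in both (-0.92 and -0.43), and Dzip1l fell in RA-sufficient PL (-3.33), with -2.82 in RA-deficient PL (adjusted p = 0.0759, edgeR). Dzip1, which encodes a DAZ-interacting zinc finger protein, rose in RA-sufficient PL (1.91) and was lower in RA-deficient than in RA-sufficient PL (-1.71 ± 0.45, adjusted p = 0.0329, edgeR), while Dazap2 was higher there (0.47 ± 0.10, adjusted p = 0.0158).

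Of 25 genes of mRNA repression and decapping, 8 rose and 7 fell of 23 tested in RA-sufficient PL, and 8 rose and 3 fell of 22 in RA-deficient PL, against In/B. Ybx2, which stores mRNAs in germ cells, rose in both (2.01 ± 0.23 and 2.64 ± 0.28), Ybx3, a related mRNA-binding protein, rose in RA-sufficient PL (1.80), and Fmr1, a translational repressor, rose in both (1.44 and 1.86). The decapping factor gene Edc3 (-1.13 and -0.71), the helicase gene Ddx6 (-1.05 and -0.67) and Dcp2, the decapping enzyme (-1.03 and -0.93), fell in both. Of 23 tested between the PL groups, 5 were higher in RA-deficient PL and 2 lower. The cap-binding gene Eif4e (0.72 ± 0.13, adjusted p = 0.0096) and the mRNA repressor gene Lsm14b (0.73 ± 0.12, adjusted p = 0.0058, edgeR) were higher, and Msi1, a translation regulator of stem cells, was lower (-1.06 ± 0.18, adjusted p = 0.0074).

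Of 7 mRNAs known as targets of DAZL or CPEB1, Mos had too few counts to test. The synaptonemal complex genes Sycp3 (log2 fold changes 2.48 and 2.80) and Sycp1 (1.33 and 1.51) rose in RA-sufficient and RA-deficient PL against In/B. Sycp3 was at 81.0, 103 and 104 CPM in In/B, 403, 530 and 612 CPM in RA-sufficient PL and 557, 532 and 701 CPM in RA-deficient PL, and the PL groups overlapped. Ccnb1, a cyclin, fell in both (-2.21 and -3.11). Ddx4 (-0.32) and Tex19.1 (-2.05), a transposon defence gene, fell in RA-sufficient PL and did not pass in RA-deficient PL (0.05 and -0.75). Plat, an mRNA activated by polyadenylation in oocytes, rose in RA-sufficient PL (4.05 ± 0.26) and not in RA-deficient PL (0.87, adjusted p = 0.142, edgeR). Between the PL groups Tex19.1 was higher (1.19 ± 0.32, adjusted p = 0.0343) and Plat lower (-3.31 ± 0.33, adjusted p = 0.0013, edgeR) in RA-deficient PL. Plat was at 96.7, 62.9 and 73.9 CPM in RA-sufficient PL and at 8.92, 9.71 and 5.07 CPM in RA-deficient PL, and the Sertoli cell markers were also high in the former. Their part in the Plat result was not tested.

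**Figure D4:**
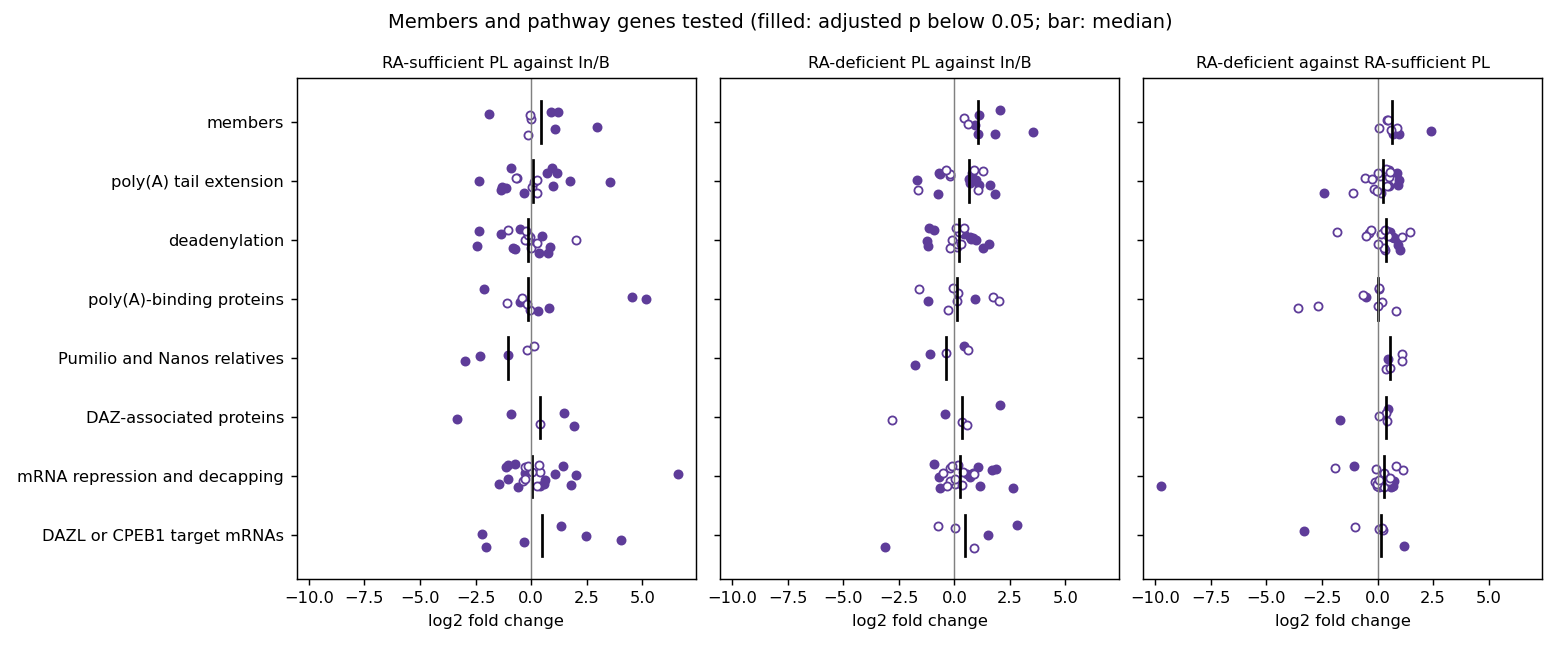
Fitted log2 fold change (horizontal axis) of each tested member and pathway gene, by list (vertical axis), in the 3 comparisons, filled where the adjusted p is below 0.05, with a bar at the median of each list. The median of the members lies at 0.45, 1.09 and 0.65, and in the right panel all filled points of the deadenylation list lie right of 0 (7 higher, 0 lower).

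Genes with the most similar profiles over the 9 libraries were found among the 9679 genes whose mean reached 10 CPM, by the root mean square difference of centred log2(CPM + 1). For Dazl these were Vps13d (0.07) and Zfp523 (0.09), for Boll the poly(A)-binding protein partner Paip2b (0.09) and Set (0.11), and for Pum2 Rock1 (0.03) and Zbtb11 (0.08). For Cpeb1 they were Zfp777 (0.09) and Slc9a5 (0.11), for Cpeb2 Cux1 (0.19), for Cpeb3 Sirt7 (0.17) and Eaf2 (0.20), and for Cpeb4 Arfgef2 (0.07) and Ap3d1 (0.08). For Nanos3 they were Llgl2 (0.31) and Fbxo32 (0.33), the largest differences of these. The members also differed in their own root mean square variation, which was 0.98 for Nanos3 and 0.23 for Pum2. The differences are therefore not comparable between members. Vps13d was at 317, 368 and 377 CPM in In/B, 272, 344 and 336 CPM in RA-sufficient PL and 705, 766 and 585 CPM in RA-deficient PL. It was chosen for its likeness to Dazl over these libraries, so its being highest in RA-deficient PL follows from that choice.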

How the data were processed

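Raw counts of reads per gene, not normalized, were deposited by the authors in a table of 24505 genes and 9 libraries. They prepared stranded libraries, and per the labels reads were trimmed with cutadapt 1.9, aligned to mm9 with STAR 2.5.2b and counted with featureCounts. The annotation and the strand setting of counting are not given in the sources used here. All columns were matched to samples by name, and 0 were left unused.

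Each comparison was fitted on its own 6 libraries with edgeR 4.0.16 in R 4.3.3: TMM scaling, filterByExpr, the quasi-likelihood test and Benjamini-Hochberg adjustment over all genes tested, 15001, 14877 and 15352 in the order of the report. "Passed", "rose" and "fell" mean an adjusted p below 0.05, and "called" also an absolute log2 fold change above 1. The script was tested on simulated data. CPM per kb used the union of GENCODE M1 exons. A motif share counts sequences with at least 1 match.

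The members and lists were chosen with earlier results of these data known. From the lists, each comparison names up to 2 genes higher and 2 lower by fold change that passed with a mean of at least 5 CPM, all 7 targets, and the 2 genes most like each member. Some genes that this rule selects are not reported here by name. Kit, Stra8 and marker sums describe the libraries.

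Replicates of a group differed beyond sampling noise, with a chi-square per degree of freedom from 6.15 to 108. Same-numbered libraries did not deviate together in all pairs (correlations from -0.28 to 0.16), so the numbers were not taken as pairs. Total counts ran from 12612959 to 27042274. Alternatives were DESeq2 1.42.0, a block on the replicate number, a single fit of the 9 libraries, RLE factors, library size only, no filter, a filter at a mean of 50 counts, a direct test against a 2-fold change, other thresholds, and fits without each library. Figures were drawn with matplotlib 3.10.9.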

Additional observations from a re-analysis of the deposited data

Results flagged for a closer look

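The direct edgeR quasi-likelihood test between the PL groups, into which no In/B library entered, passed for 3 members, as given above. Of all genes tested, 23.6% passed it. The difference was 0.99 on the log2 scale for Dazl, 0.70 for Cpeb4 and 2.39 for Nanos3, each higher in RA-deficient PL and with the 3 RA-deficient libraries above the 3 RA-sufficient ones. The libraries of Cpeb2, Cpeb3 and Pum2 were separate in the same way without passing the test. The share of all genes with such separate libraries was not counted. For Nanos3 the difference rests on 16 to 81 counts per RA-sufficient library and passed in 2 of 6 fits made without 1 library.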

How the results depend on the processing

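Of 192 fold changes of members under alternatives other than leaving out a library, 168 kept their direction and their side of an adjusted p of 0.05, 12 no longer passed it, 10 newly passed it and 2 changed sign. A call can also be lost by the fold change alone, as for Dazl (0.78) and Boll (0.76) in RA-deficient PL against In/B with library size only. The sign changes were of values near 0, namely Dazl in RA-sufficient PL against In/B with a mean of at least 50 counts (0.0490) and Boll between the PL groups with library size only (-0.14). Leaving out each library gave -0.0839 to 0.0858 for Dazl and -0.301 to 0.0551 for Cpeb1 in the former comparison, and -0.0208 to 0.136 for Boll in the latter. Between In/B and RA-sufficient PL, 4 members were called, and 2 against a fold change of 2. In RA-deficient PL against In/B they were 5, and 3 with library size only, with all 9 libraries in a single fit or against a fold change of 2. Between the PL groups 1 member was called, 2 with all 9 libraries, 3 by adjusted p alone, and 0 to 3 with a library left out. It was 0 with edgeR at an adjusted p of at most 0.01 or against a fold change of 2, where 5758 and 2202 of all genes had an unadjusted p below 0.05 and DESeq2 called 1 member. Between In/B and RA-sufficient PL, 33 pathway genes were called, and 57 by adjusted p alone. In RA-deficient PL against In/B they were 21, with 8 against a fold change of 2 and 43 by adjusted p alone. Between the PL groups they were 7, with 13 in the fit of all 9 libraries, 2 against a fold change of 2, 11 with DESeq2, 26 by adjusted p alone, 3 at an adjusted p of at most 0.01, and 2 to 17 with a library left out, the 17 without replicate 3 of RA-deficient PL. Of all genes, 3446 were called in RA-deficient PL against In/B, with 1207 against a fold change of 2 and 5459 by adjusted p alone, and 2383 between the PL groups, with 741, 3629, 973 at an adjusted p of at most 0.01, and 1190 to 4484 with a library left out. With library size only, the share of calls that were higher fell from 49.1% to 28.9% in RA-deficient PL against In/B and from 28.8% to 17.5% between the PL groups. With the replicate number as a block, 6373, 3208 and 1765 genes were called in the 3 comparisons in place of 6803, 3446 and 2383, the members called were 4, 5 and 1, and 0, 1 and 0 of 3 libraries correlated best with their own number. Except as stated, the cause was not tested. The lowest members, Cpeb3 in In/B and Nanos3 in RA-sufficient PL, are limited by depth, with 82 and 81 counts at most.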
